A study of Mus musculus with 2 samples.

Results

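The enzymes described here remove reactive oxygen species and electrophiles: superoxide dismutases, catalase, peroxiredoxins, glutathione peroxidases, glutathione transferases, and the glutathione and thioredoxin systems that supply them. With them are described the NRF2 and KEAP1 proteins, which regulate the transcription of many of these genes. The set was a list of 34 genes. All probe sets that the platform annotation assigned to exactly 1 gene, and that gene a listed member, were taken from an Affymetrix 3' expression array. That gave 69 probe sets for 31 genes out of 18193 named genes. No probe set was annotated to Prdx1, Prdx5 or Prdx6 without a further gene, so these members were not analysed here; 5 probe sets name Prdx1 together with a further gene and were left out by this rule.

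RNA came from peritoneal macrophages of C57BL/6J mice aged 8 weeks, with 1 array per group. The resident group held macrophages of untreated mice. The elicited group held macrophages taken 3 days after 1 mL of 3% thioglycollate, an irritant broth, had been injected into the peritoneal cavity. In both, cells were left to adhere for 2 h per the labels' protocols, while the series' design text speaks of culture overnight, so the culture time is uncertain. The labels do not say how many mice went into an array. Single arrays carry no replicate error, so nothing was tested and differences are described against a 2-fold threshold.

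Superoxide made by the phagocyte oxidase and by mitochondria is turned into hydrogen peroxide by superoxide dismutases, and the peroxide is then destroyed by catalase, peroxiredoxins and glutathione peroxidases. Most peroxiredoxins are re-reduced by thioredoxin, and glutathione peroxidases by glutathione. Both carriers are in turn recharged by reductases that spend NADPH. The transcription factor NRF2 (gene Nfe2l2) is held down by KEAP1, and on oxidative or electrophilic stress it escapes and, with small MAF proteins, binds antioxidant response elements of many of these genes. Macrophages keep this system active because they make oxidants to kill microbes.

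Signals are linear MAS5 intensities. A floor of 82.2 was set from the 95th percentile of gene families macrophages are not thought to express. A value at or below it is not told from background. Of the 31 members with a probe set, 28 exceeded the floor, all of them on both arrays. Sod3, Gsta4 and Gstt1 stayed under it on the resident and the elicited array alike. Values are those of the gene's brightest probe set by mean log2 signal, and other probe sets of a member above the floor are given beside it. Over 4465 genes of the array the SD between probe sets of 1 gene was 0.48 on the log2 scale (1.40-fold), the only spread these data hold. It says nothing of variation between mice or cultures.

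Genes of the enzymes that make and recharge glutathione, the mitochondrial superoxide dismutase gene Sod2, the quinone reductase gene Nqo1 and the transferase gene Gsta3 had lower signals on the elicited array. The measured peroxiredoxins, glutathione peroxidases and thioredoxins had higher signals there, most by less than 2-fold, and the membrane transferase gene Mgst3 and the secreted peroxidase gene Gpx3 were higher by more than the threshold. Of the 28 members, 3 were higher by 2-fold or more (10.7%, against 8.04% of all 11499 genes above the floor). A further 5 were lower by 2-fold or more (17.9%, against 11.8% of all genes), and the other 20 had smaller ratios. These shares of members lie close to those of all genes, so the set as a whole is not described as moving. The median log2 ratio of the members was 0.16, and that of those 11499 genes was -0.03. Log2 ratios ran from -4.07 (Gsta3) to 2.28 (Mgst3).

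**Figure D1:**
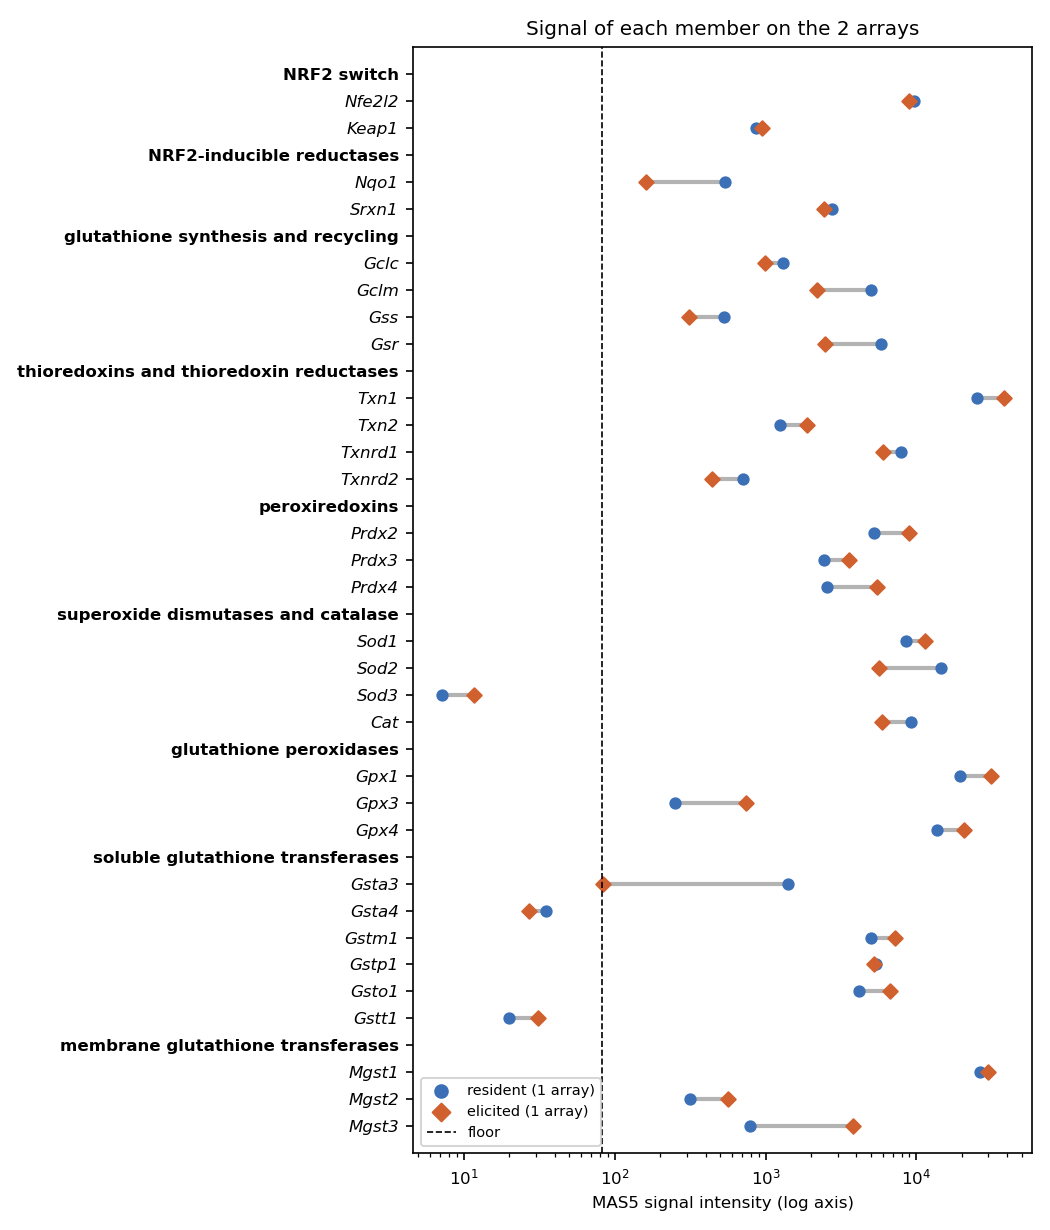
MAS5 signal intensity (log axis) of each measured member on the resident array (circles) and the elicited array (diamonds), grouped by role, with the floor of 82.2 as a dashed line. The longest gaps are those of Gsta3, Mgst3, Nqo1, Gpx3 and Sod2, and Sod3, Gsta4 and Gstt1 lie below the floor.

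The scaling of the arrays moved these counts. Relative to the deposited scale, whose median over all genes was -0.03, that median became 0.25 with equal medians of the bright probe sets, 0.16 after quantile and 0.07 after loess normalization, and -0.34 on the spiked hybridisation controls. The counts of members at least 2-fold higher and lower were 6 and 3 with equal medians, 3 and 5 after either quantile or loess normalization, and 2 and 7 on the hybridisation controls. The counts over all genes moved as well. They were 1643 and 847 of 11538 genes with equal medians and 1274 and 926 of 11595 after quantile normalization. After loess they were 1072 and 1059 of 11499, and on the hybridisation controls 542 and 2292 of 11616. The members' median of 0.16 turned negative with quantile normalization (-0.04), loess (-0.11) and the hybridisation controls (-0.19). Among the 8 members past the threshold, 5 passed it under all 12 alternatives tried: Nqo1, Sod2 and Gsta3 on the lower side and Gpx3 and Mgst3 on the higher. Nqo1, Gpx3 and Mgst3 each have 1 probe set above the floor, so the choice of probe set could not move them. None of the 8 changed direction, but their ratios lay further from 0 than any scaling moved them, so this says little.

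Brightness also moves with the ratio on these arrays, and many members are bright. Of the 28, 13 were in the brightest of 10 bins by mean signal, each of 982 genes that exceeded the floor on both arrays. The median log2 ratio of that bin was 0.41, against -0.24 in the third bin. Set against the median of their own bin, 14 members were higher and 14 lower. A ratio near 0.4 in a bright member is therefore near that of other bright genes.

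**Figure D2:**
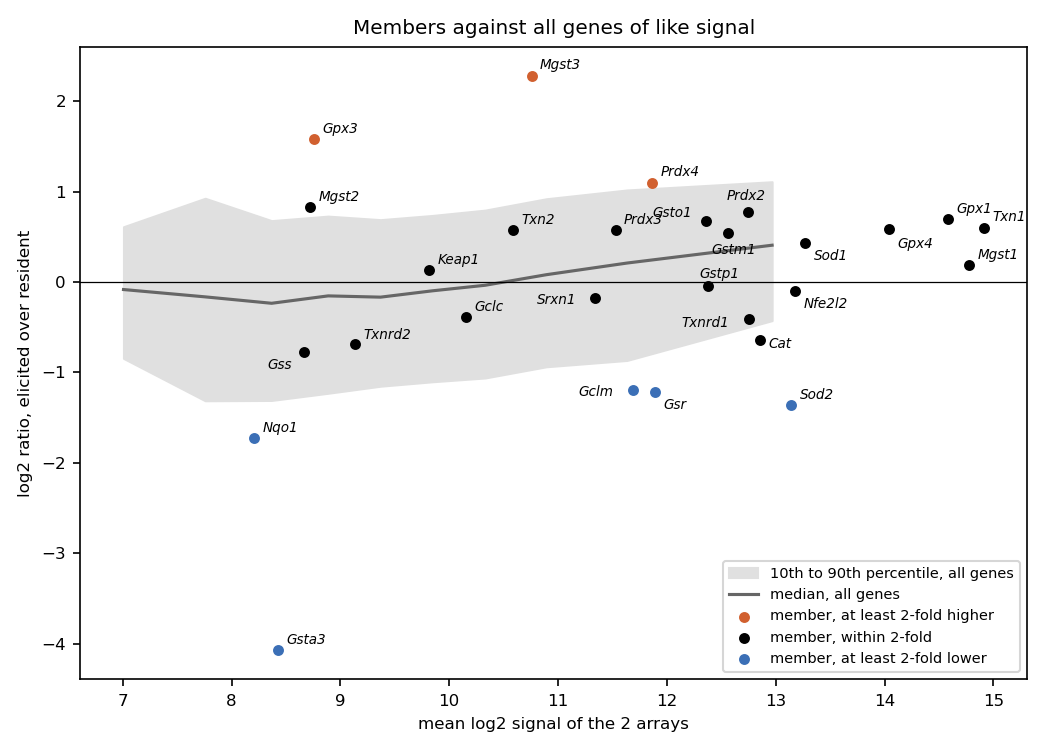
Log2 ratio of elicited over resident signal (y axis) against the mean log2 signal of the 2 arrays (x axis) for the 28 members, over the median (line) and the 10th to 90th percentile (band) of the genes in 10 equal bins of mean signal, drawn up to the middle of the brightest bin. The line climbs from -0.24 in the third bin to 0.41 in the brightest; Mgst3 and Gpx3 lie well above the band and Mgst2 and Prdx4 just above it, while Gsta3, Nqo1, Gclm, Gsr and Sod2 lie well below it and Cat just below.

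The labelled cell type was checked first against its markers. All 8 macrophage genes examined were above the floor on both arrays, with summed signals of 141135 and 137236. These similar sums cover genes that differed: Itgam (log2 ratio -1.58) and Cd14 (-1.45) were lower and Fcgr1 (1.35) higher by more than 2-fold. Markers of the large macrophages that reside in the cavity summed to 80087 and 15740, with 6 of 8 lower by 2-fold or more and Cd5l higher (log2 ratio 2.48). Alox15 (25979 on the resident array) and Timd4 (9720) were below the floor in elicited cells, as was F5 (3656.5). Markers of other cells also differed between the arrays. The 7 B cell markers summed to 23389 for resident and 4832 for elicited cells, and 5 of them differed by 2-fold or more in that direction. The other 2 were higher within 2-fold: Cd22 (2269 and 4078), which makes up most of the elicited sum, and Pax5 (log2 ratio 0.18). The 5 mast cell markers above the floor were all lower by 2-fold or more and none exceeded the floor in elicited cells (sums over all 7 of 2503 and 145). Mesothelial and fibroblast markers went the other way: 8 of the 10 above the floor were higher by 2-fold or more in elicited cells (sums over all 12 of 772 and 16341), while Msln and Lum exceeded the floor on neither array. Of the neutrophil markers, 6 of 10 exceeded the floor on neither array (Mpo, Elane, Ltf, Ngp, S100a9 and Cxcr2), and 3 of the other 4 were lower by 2-fold or more (sums over all 10 of 13413 and 8647). S100a8 was higher within 2-fold (3663 and 4675) and makes up much of the elicited sum. Dendritic cell markers summed to 1368 and 277, and 3 of the 6 exceeded the floor on neither array. T cell markers summed to 943 and 588. Of the 5 T cell markers above the floor, Cd28 was higher by 2-fold or more (log2 ratio 1.52) and 2 were lower (Cd3d, -1.83, and Cd3g, -1.23). Eosinophil markers summed to 549 and 1148, a difference carried by Siglecf (322 and 1014). Il5ra had 124 on the resident array and lay below the floor on the elicited one. Epx, Prg2, Prg3 and Ccr3 exceeded the floor on neither array. The part of these cells in the members' ratios was not tested. Fewer cells of a type and less RNA per cell cannot be told apart in such samples. Erythroid markers, of interest because red cells are rich in catalase and peroxiredoxin 2, were at or near the floor: 5 of the 8 measured exceeded it on neither array, and the highest was Hba-a2 with 254 and 309.

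The regulators of the system differed little. Nfe2l2, encoding NRF2, had 9612 in resident and 8974 in elicited cells, a log2 ratio of -0.10. Keap1, its inhibitor and sensor of electrophiles, had 860.3 and 944 (log2 ratio 0.13). Both genes had a dimmer or second probe set pointing the other way (0.38 for Nfe2l2 and -0.10 for Keap1), and both turned sign with the scaling, Nfe2l2 to 0.21 with equal medians and Keap1 to -0.22 on the hybridisation controls. The mRNA of these regulators says nothing of the NRF2 protein, whose level is set largely by its degradation.

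Of the reductases that NRF2 is known to induce, Nqo1, which reduces quinones by a transfer of 2 electrons at once, had a signal of 538 in resident and 162 in elicited cells. It was 3.31-fold lower (log2 ratio -1.73), from -2.08 to -1.29 over all alternatives. Srxn1, the sulfiredoxin that repairs over-oxidized peroxiredoxins, had 2757 and 2447. Its log2 ratio was -0.17, its 4 probe sets ran from -0.27 to 0.25, and it turned to 0.14 with equal medians. These genes, both well-known NRF2 targets, thus did not share a size of difference.

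The sequences bound by NRF2 were looked for in the promoters of the members, to show which of them carry that letter pattern and whether it follows the ratios. RefSeq promoter windows of GRCm38.p6, 250 bases before to 50 after a gene's start, were at hand for 29 of the 34 members (36 windows). The core TGACNNNGC on either strand was found in 8 of these 29 members (27.6%) and in 14.0% of all 27025 genes with a window. Its other form, TGAGNNNGC, was added after the values were seen and was found in 5 of 29 members (17.2%) and in 19.9% of all genes. Either form was present in 11 of 29 members (37.9%) and in 30.8% of all genes. The matches of the first form, read on the strand that carries the core, were:
Gclm, 134 bases before the start: TGACGGTGC
Prdx1, 133 bases before: TGACTCAGC
Gsta3, 121 bases before: TGACATTGC
Txnrd1, 92 bases before: TGACAAAGC
Sod1, 56 bases before: TGACCACGC
Mgst1, 56 bases before: TGACCGTGC
Nfe2l2, 240 bases before: TGACTCCGC
Srxn1, 28 bases after: TGACCTAGC

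The match of Prdx1 also contains TGACTCA, the core of an AP-1 site. Srxn1 holds TGAGTCAGC 45 bases before its start and Gstp1 the same 9 letters 74 bases before. These letters contain TGAGTCA, which is the same AP-1 core read on the other strand. The first form was in 2 of the 4 members that had a window and were lower by 2-fold or more (Gclm and Gsta3), in none of the 3 that were higher by as much, and in 5 of 19 within 2-fold. A match is a pattern of letters and not a shown site, and the absence of one holds for these 300 bases alone. Member windows held a median of 16 CpG dinucleotides against 7 in all windows, and a median of 59.7% G and C against 52.7%. The 250 bases before the start are shown for a gene with the first form that was lower (Gclm), for the gene with the lowest ratio (Gsta3), for one with the other form whose ratio was near 0 (Srxn1), and for the gene with the highest ratio, which has neither (Mgst3). Capitals mark the matches, and each sequence runs 5′ to 3′ on the gene's strand.
Gclm (chr3:122245307-122245556, plus strand): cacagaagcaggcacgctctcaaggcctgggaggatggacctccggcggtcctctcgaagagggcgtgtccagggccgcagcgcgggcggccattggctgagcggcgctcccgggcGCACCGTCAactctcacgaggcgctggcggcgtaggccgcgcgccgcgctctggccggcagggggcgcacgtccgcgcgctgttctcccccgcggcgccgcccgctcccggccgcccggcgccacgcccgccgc
Gsta3 (chr1:21240335-21240584, plus strand): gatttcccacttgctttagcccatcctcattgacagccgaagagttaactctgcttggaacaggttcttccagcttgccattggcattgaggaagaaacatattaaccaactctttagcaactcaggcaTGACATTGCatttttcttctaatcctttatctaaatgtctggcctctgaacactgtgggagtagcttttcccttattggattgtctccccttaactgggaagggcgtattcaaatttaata
Srxn1 (chr2:152105274-152105523, plus strand): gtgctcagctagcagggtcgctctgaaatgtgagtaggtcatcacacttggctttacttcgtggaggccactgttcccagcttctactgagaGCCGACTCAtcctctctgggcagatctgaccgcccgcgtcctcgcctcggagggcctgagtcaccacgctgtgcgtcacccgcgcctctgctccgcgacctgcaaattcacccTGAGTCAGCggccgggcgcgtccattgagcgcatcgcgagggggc
Mgst3 (chr1:167393842-167394091, minus strand): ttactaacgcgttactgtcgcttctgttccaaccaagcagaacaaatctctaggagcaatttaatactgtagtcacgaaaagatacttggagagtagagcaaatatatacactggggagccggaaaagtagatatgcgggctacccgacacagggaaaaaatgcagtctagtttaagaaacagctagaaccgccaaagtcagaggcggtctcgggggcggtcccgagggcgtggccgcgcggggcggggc
The windows of Gclm and Gsta3 differ widely in composition, with 48 and 2 CpG dinucleotides over their 300 bases.

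All 4 genes of glutathione synthesis and recycling had lower signals on the elicited array, and 2 passed the threshold. Gclm, the modifier subunit of glutamate-cysteine ligase, which sets how readily the first step of synthesis runs, had 4987 in resident and 2185 in elicited cells (2.28-fold lower). Its second probe set had 1354 and 251 (5.41-fold lower). Gclc, the catalytic subunit of the same enzyme, had 1303 and 993, a log2 ratio of -0.39 in this probe set and -0.38 in the other. The 2 subunits of 1 enzyme thus differed in size, with log2 ratios of -1.19 and -0.39.

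Gss, glutathione synthetase, which adds glycine in the second step, had 534 and 311 (log2 ratio -0.78, and -0.28 in a second probe set). Gsr, the reductase that returns oxidized glutathione to its working form with NADPH, had 5783 and 2481 (2.33-fold lower), and a second probe set was 2.89-fold lower. Gclm and Gsr lie in the second-brightest bin, whose median ratio was 0.21, so their distance from genes of like signal was -1.40 and -1.43. With equal medians their log2 ratios were -0.88 and -0.91, within 2-fold. The signs of all 4 genes held under every alternative.

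In the thioredoxin system the carriers had higher signals and their reductases lower ones, both within the 2-fold threshold. Txn1, cytosolic thioredoxin, had 25070.5 in resident and 38015 in elicited cells (1.52-fold higher), and its second probe set agreed in direction (log2 ratio 0.73). Txn2, the mitochondrial thioredoxin, had 1256 and 1873 (1.49-fold higher), with 3 of 3 probe sets higher (0.16 to 0.59). Loess took Txn1 down to 0.12, since bright genes were higher as a whole, and left Txn2 at 0.60.

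Txnrd1, the cytosolic selenoenzyme that reduces thioredoxin, had 7939 and 5981 (1.33-fold lower). Its 3 probe sets were all lower, with log2 ratios from -1.10 to -0.41. Txnrd2, its mitochondrial counterpart, had 711 and 443 (1.61-fold lower), with 3 of 4 probe sets lower (-0.87 to 0.09). Carrier and reductase thus stood on opposite sides of 0 in both compartments, and did so under all 4 other scalings (Txn1 0.12 to 0.91, Txnrd1 -0.76 to -0.10). On the hybridisation controls Txnrd2 passed the threshold (-1.03).

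**Figure D3:**
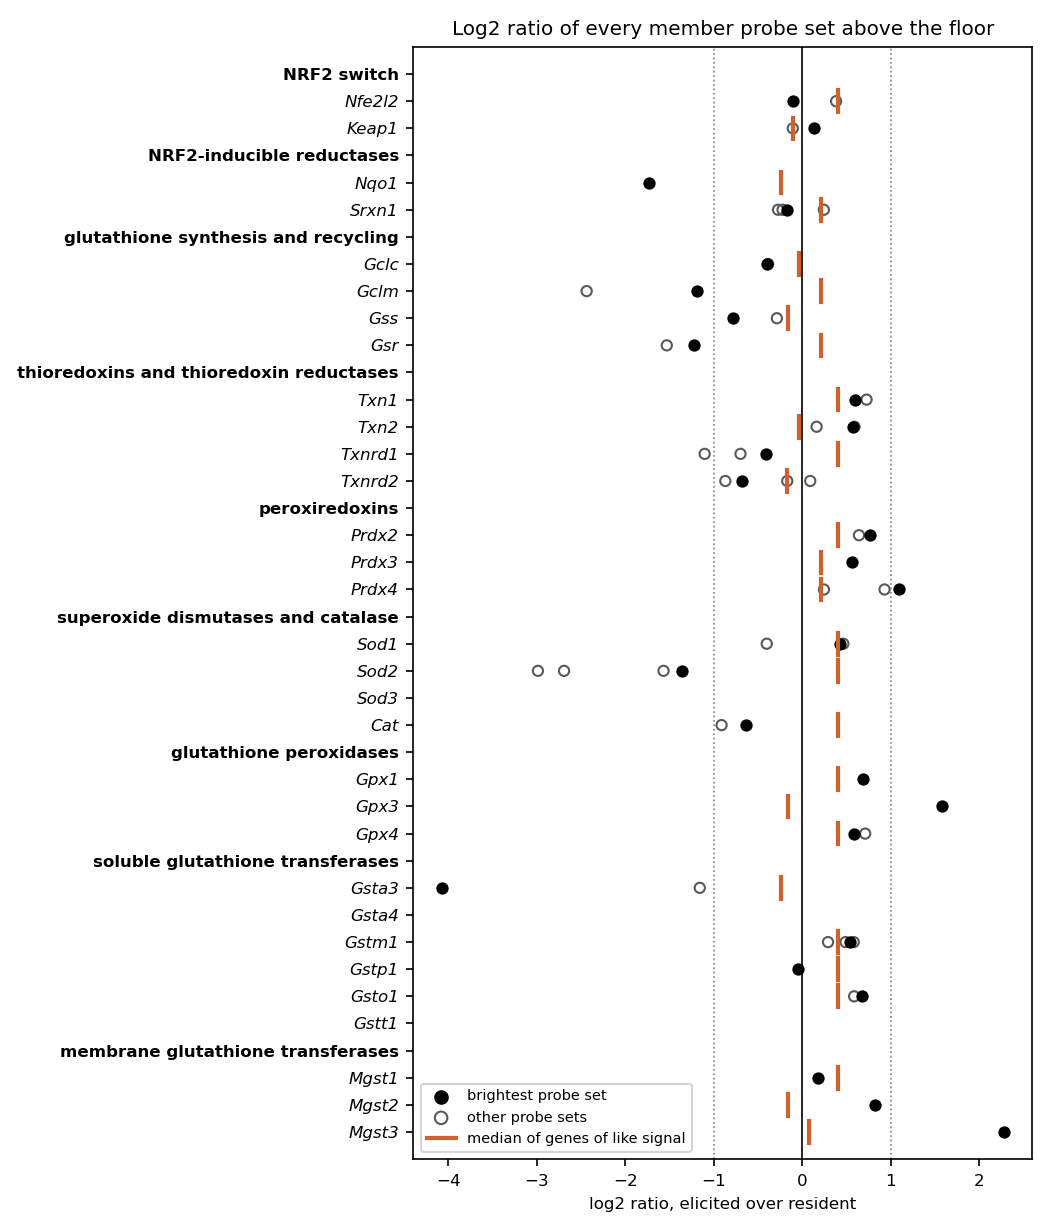
Log2 ratio of elicited over resident signal for every member probe set above the floor, by role; filled points are the brightest probe set of a gene by mean log2 signal, open points the others, bars the median of all genes in the same bin of mean signal, and dotted lines mark 2-fold. All probe sets of Gclm, Gsr, Sod2, Cat and Txnrd1 lie left of 0, and those of Txn1, Txn2, Prdx2, Gpx4 and Gstm1 lie right of it.

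The 3 measured peroxiredoxins, which reduce hydrogen peroxide, all had higher signals on the elicited array, 1 of them past the threshold. Prdx4, the peroxiredoxin of the endoplasmic reticulum, had 2549 and 5459.5 (2.14-fold higher). Its other probe sets above the floor had log2 ratios of 0.93 and 0.25. Its call was lost with quantile normalization (0.92), loess (0.88), the hybridisation controls (0.75), the mean over probe sets (0.76) and the ratio relative to genes of like signal (0.89).

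Prdx2, a cytosolic peroxiredoxin, had 5249 and 8943 (1.70-fold higher), and its other probe set had a log2 ratio of 0.64. Prdx3, the mitochondrial one, had 2426 and 3601 (1.48-fold higher). Each of the 3 was also higher than the median of genes of like signal, by 0.36 for Prdx2 and Prdx3 and by 0.89 for Prdx4. The direction of all 3 held under every alternative.

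Of the superoxide dismutases, Sod2 alone differed by more than 2-fold. Sod2, the manganese enzyme of the mitochondrial matrix and a gene that inflammatory signals are known to induce, had 14488.5 in resident and 5649 in elicited cells (2.56-fold lower). Its other 3 probe sets were lower by more: 14677 and 4958 (2.96-fold), 3216 and 406 (7.92-fold), and 530 with an elicited signal below the floor (at least 6.45-fold). The log2 ratio of Sod2 was -1.77 relative to genes of like signal, and it was past the threshold under all alternatives (-2.15 to -1.05).

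Sod1, the copper and zinc enzyme of the cytosol, had 8531 and 11491 (1.35-fold higher). Another bright probe set had a log2 ratio of 0.47 and a dim one of -0.40. That ratio of 0.43 equals the general level of bright genes to within 0.02, and its range over the alternatives, 0.02 to 0.74, stayed above 0. Sod3, the extracellular enzyme, had signals of 7.11 and 11.7, far below the floor.

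Cat, the catalase of peroxisomes, had 9261 in resident and 5947 in elicited cells (1.56-fold lower). Its second probe set had a log2 ratio of -0.91. Relative to the median of its bin Cat stood at -1.05, past the threshold by that measure alone among the alternatives. The marker sums given above went both ways. Those of resident large macrophage, B cell, mast cell, neutrophil, dendritic cell and T cell markers were lower in elicited cells. Those of mesothelial and fibroblast and of eosinophil markers were higher, and the macrophage sums were similar. The part of these cells in the lower signals of Sod2 and Cat was not tested.

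All 3 glutathione peroxidases, which reduce peroxides at the expense of glutathione, had higher signals on the elicited array. Gpx1, the abundant cytosolic selenoenzyme, had 19351 and 31252.5 (1.62-fold higher). Gpx4, which reduces lipid peroxides within membranes and guards against ferroptosis, had 13762.5 and 20668 (1.50-fold higher), and 0.71 in its second probe set. Both are in the brightest bin, and relative to its median they stood at 0.29 and 0.18, less than the spread between probe sets.

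Gpx3, the secreted peroxidase known mainly from plasma and kidney, had 251 in resident and 747 in elicited cells (2.98-fold higher, 1 probe set). It was past the threshold under all 12 alternatives (log2 ratio 1.23 to 1.95). Those that raise the floor, drop the filter or alter the choice of probe set could not move it, and left it unchanged. Gpx3 is also expressed by stromal cells, and the mesothelial and fibroblast markers had summed signals of 772 and 16341; their part in the ratio of Gpx3 was not tested.

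Soluble glutathione transferases join glutathione to electrophiles, and the one large difference among them was in Gsta3, an alpha-class enzyme. Gsta3 had 1412 in resident and 83.8 in elicited cells, 16.9-fold lower. The elicited signal is barely above the floor, so the size of this ratio is close to a bound, and the log2 ratio moved from -4.07 to -3.02 with the floor at the 99th percentile (174), to -3.17 with the floor as a pseudocount and to -2.62 as the mean over probe sets. Its second probe set had 183 on the resident array and lay below the floor on the elicited one (at least 2.23-fold lower).

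The other 3 soluble transferases above the floor were within 2-fold. Gsto1, an omega-class enzyme with thioltransferase activity, had 4163 and 6649 (1.60-fold higher) and 0.59 in its second probe set. Gstm1, a mu-class enzyme, had 5002 and 7264 (1.45-fold higher), with 4 of 4 probe sets higher (0.29 to 0.58). Gstp1, the pi-class enzyme, had 5403 and 5233 (log2 ratio -0.05, turning to 0.26 with equal medians). Gsta4 (34.8 and 27.1) and Gstt1 (20.0 and 31.1) did not exceed the floor. Transferases of a class are alike in sequence, so a probe set can pick up a relative. Of the 4 probe sets of Gstm1, 2 carry the array's suffix for such cross-hybridisation, among them the one that gave 1.45-fold. The brightest without that suffix had 3666 and 4493 (log2 ratio 0.29).

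The microsomal transferases are membrane proteins that also act in lipid mediator and lipid peroxide metabolism, and all 3 had higher signals on the elicited array. Mgst3 had 785 and 3815 (4.86-fold higher), the highest ratio of the set, from 1.93 to 2.59 over all alternatives. A second probe set of Mgst3 was below the floor on both arrays (3.45 and 72.1). Mgst2, which can make leukotriene C4, had 317 and 564 (1.78-fold higher) and passed 2-fold with equal medians (1.14), quantile normalization (1.20) and loess (1.15).

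Mgst1 had 26353 and 29939 (log2 ratio 0.18), lower than other genes of its bin by 0.22. It turned negative with quantile normalization (-0.13), loess (-0.29) and the hybridisation controls (-0.17). A second probe set of Mgst1 was below the floor on both arrays.

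Of the 20 members represented above the floor by at least 2 probe sets, 15 had all of them on 1 side of 0. Among the members past the threshold 5 had 2 or more, and in all 5 the probe sets pointed the same way. Probe sets of a gene read the same 2 arrays and are not replicates. The share of all genes with such agreement was not counted. Of the 12 members that were higher but within 2-fold, 10 stayed above 0 under all 4 other scalings, the exceptions being Keap1 and Mgst1. Of the 8 that were lower but within 2-fold, 5 stayed below 0 (Gclc, Gss, Txnrd1, Txnrd2 and Cat), while Nfe2l2, Srxn1 and Gstp1 did not.

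**Figure D4:**
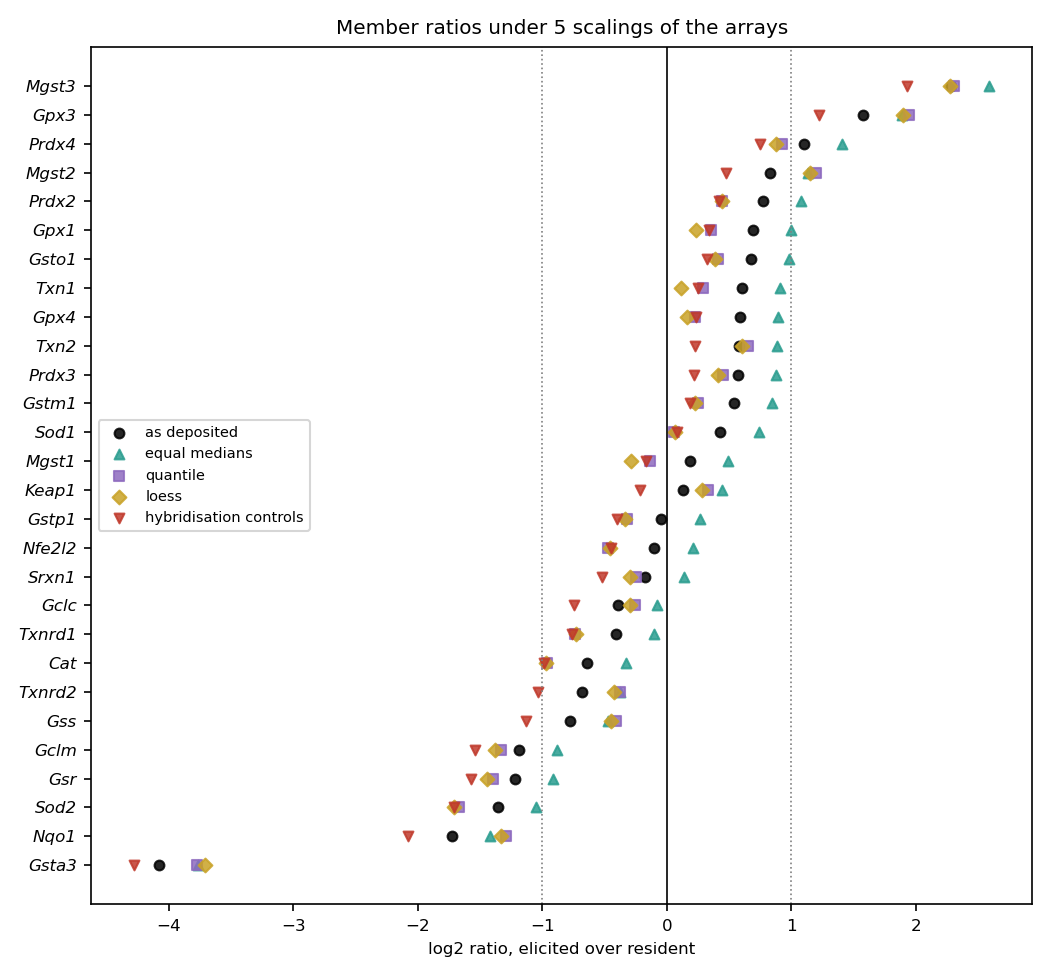
Log2 ratio of elicited over resident signal for the 28 members above the floor under 5 scalings of the arrays, sorted by the ratio as deposited; dotted lines mark 2-fold. Equal medians moves the members to the right of their deposited value and the hybridisation controls move them to the left, and Mgst3, Gpx3, Sod2, Nqo1 and Gsta3 stay outside the dotted lines throughout.

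Genes around the members were examined on lists drawn from general knowledge of the pathways. Of 35 other genes of the NRF2 pathway, 30 exceeded the floor, of which 25 differed by less than 2-fold, 2 were higher (6.67%, against 8.04% of all genes) and 3 lower (10.0%, against 11.8%) by more. The median log2 ratio was -0.08. Both shares lie close to those of all genes and rest on few genes, so the list is not described as moving. Of the 30, 13 had ratios above 0 and 17 below it. Slc7a11, the cystine carrier that feeds cysteine to glutathione synthesis, had 843 and 207 (4.07-fold lower, and a log2 ratio of -3.28 in a second probe set), beside the lower Gclm and Gsr. Ephx1, a microsomal epoxide hydrolase, had 4222 and 757 (5.58-fold lower). Abcc1, an exporter of glutathione conjugates, had 5516 and 1534 (3.60-fold lower, and a log2 ratio of -2.06 in a second probe set).

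Other genes of that list had higher or similar signals. Akr1b8, an aldose reductase relative, had 463 and 4048 (8.74-fold higher) from 1 probe set, and its family holds close relatives. Ptgr1, which reduces prostaglandins and leukotrienes, had 2425 and 6035 (2.49-fold higher). Hmox1, haem oxygenase 1, the best-known NRF2 target in macrophages, had 4551 and 3393 (1.34-fold lower). G6pdx was not analysed here.

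Of 63 other genes of glutathione and thioredoxin metabolism, 55 exceeded the floor, of which 47 differed by less than 2-fold, 6 were higher (10.9%, against 8.04% of all genes) and 2 lower (3.64%, against 11.8%) by more. The median log2 ratio was 0.20. Gpx8, a peroxidase of the endoplasmic reticulum like Prdx4, was below the floor on the resident array and had 315 on the elicited one (at least 3.84-fold higher). The transferase genes Gstm2 (327 and 919, 2.81-fold), Gstm4 (320 and 781, 2.44-fold) and Gstk1 (337 and 783, 2.32-fold) were higher. Sesn3, a stress-induced sestrin, had 502 on the resident array and lay below the floor on the elicited one (at least 6.11-fold lower, with a second probe set at -0.91). Txnip, which binds and inhibits thioredoxin, had 8477 and 6392 (log2 ratio -0.41), while its second probe set was past 2-fold (-1.01). The glutaredoxin gene Glrx had 2403 and 1760 (-0.45, and -0.62 in a second probe set).

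**Figure D5:**
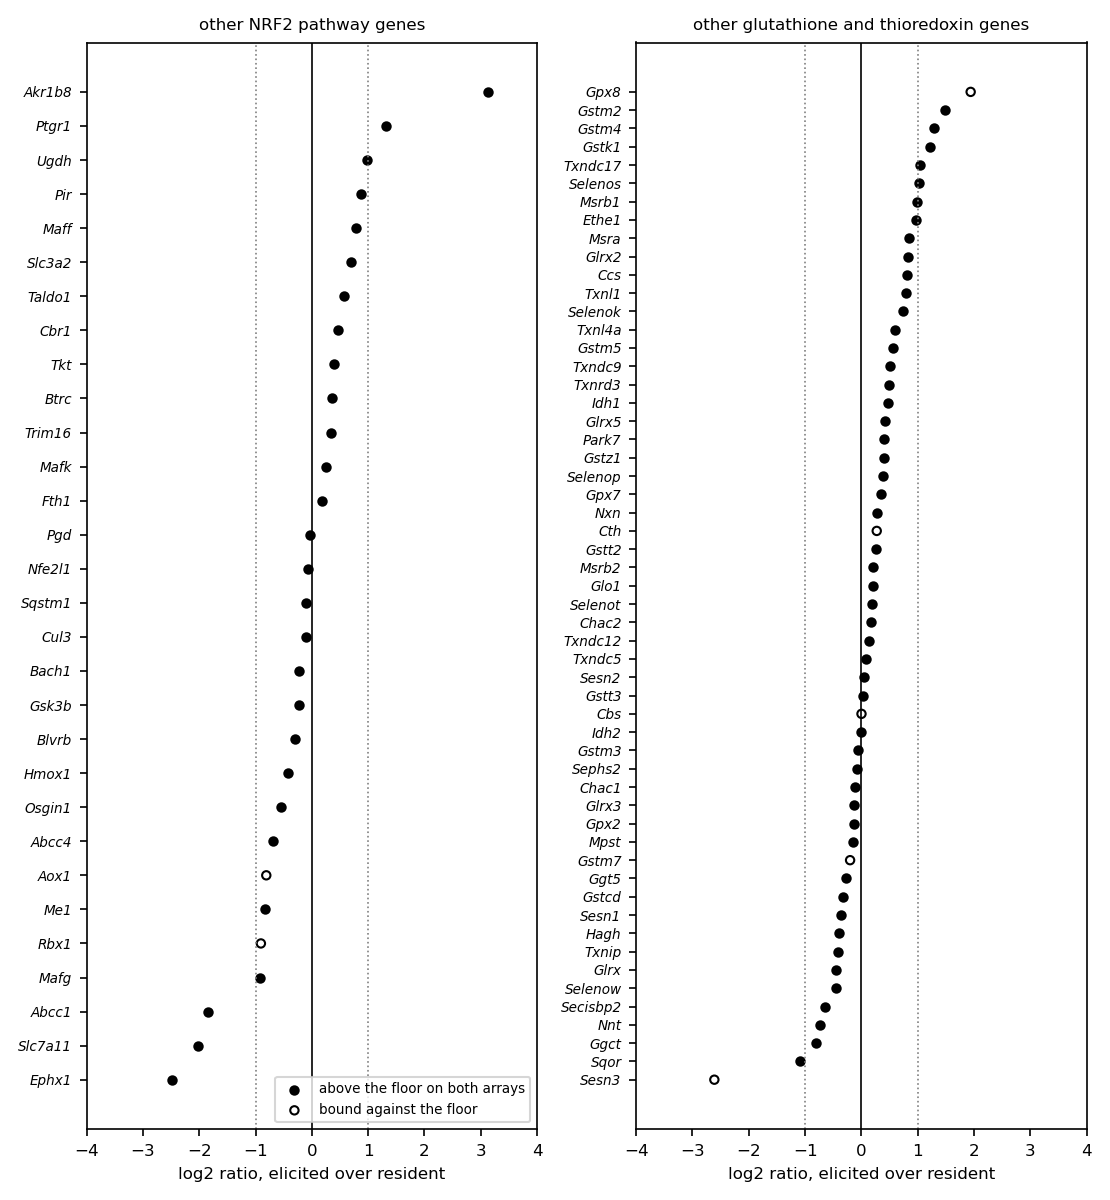
Log2 ratio of elicited over resident signal for genes above the floor on the list of other NRF2 pathway genes (left, 30 genes) and of other glutathione and thioredoxin genes (right, 55 genes); open circles are bounds against the floor and dotted lines mark 2-fold. Akr1b8 and Gpx8 head the lists, and Ephx1 and Sesn3 end them.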

How the data were processed

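Peritoneal macrophage RNA (100 ng per array, biotinylated cRNA) was hybridised to 1 array per group. The deposited values are linear signal intensities that the authors computed with MAS5 (submitters' processing notes); for its version, scaling target and detection calls nothing is given in the sources used here. Leaving out the outer 2% at each end, the mean signal was 500.003 and 500.004, so both arrays share a scale. Precision is limited by the number of arrays.

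Of 45101 probe sets, 34958 name 1 gene in the platform annotation, and 34754 of these matched the GRCm38.p6 RefSeq gene table by gene ID. A floor of 82.2 was the 95th percentile of both arrays' signals at 126 probe sets of gene families taken as silent (keratin-associated proteins and the olfactory, vomeronasal and bitter taste receptor families); lower signals were raised to it. The brightest probe set by mean log2 signal stood for a gene, and log2 ratios are elicited minus resident. No test was possible. Members and gene lists were chosen with earlier results of these data known. All members are named, and of each surrounding list the 5 genes with the largest absolute log2 ratio plus Hmox1, Slc7a11, Txnip, Glrx and G6pdx. Alternatives covered scaling, floor, filter and probe-set choice; setting members against their bin of signal was added after the data were seen. The calculation was tested on simulated data. Promoters are from RefSeq (GRCm38.p6). Python 3.11.15, numpy 2.4.6, pandas 2.3.3 and statsmodels 0.14.6 (loess span 0.4) were used.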

Additional observations from a re-analysis of the deposited data

How the results depend on the processing

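With 1 array per group, an alternative was compared with the deposited scale by whether a count stayed within 1.5 times and a log2 ratio within the SD between probe sets (0.48). The members at least 2-fold higher went from 3 to 6, and those at least 2-fold lower from 5 to 3, with equal medians; under the other alternatives both counts stayed within 1.5 times, with 2 to 3 higher and 5 to 7 lower. The other NRF2 pathway genes at least 2-fold higher went from 2 to 6 with equal medians, to 4 after either quantile or loess normalization, and to 1 on the hybridisation controls, where those at least 2-fold lower went from 3 to 7. The other glutathione and thioredoxin genes went from 6 higher and 2 lower to 13 and 1 with equal medians and to 2 and 5 on the hybridisation controls. Counts over all genes moved too, from 924 higher and 1357 lower of 11499 genes as deposited. They were 1643 and 847 of 11538 with equal medians and 542 and 2292 of 11616 on the hybridisation controls. After quantile normalization they were 1274 and 926 of 11595, and after loess 1072 and 1059 of 11499. Equal medians and the hybridisation controls each shift all ratios one way by construction. No member past 2-fold changed direction, but ratios of that size lay further from 0 than any scaling moved them. Mgst1 gave no value with unique-suffix probe sets. The report covers 1 array per group, so spread between mice was not measured, and dim genes such as Gsta3 on the elicited array are limited by the floor.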

Other observations

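Further genes of the surrounding lists were picked after their values were seen and are given as values. Methionine sulfoxide reductases, which repair oxidized methionine with thioredoxin, differed in size and none passed 2-fold. Msra had 1073 in resident and 1937 in elicited cells (log2 ratio 0.85), the selenoprotein Msrb1 had 9130 and 18040 (0.98, and 0.59 after loess), Msrb2 had 316 and 365 (0.21), and Msrb3 did not exceed the floor. Of the selenoproteins in the membrane of the endoplasmic reticulum, Selenos had 2631 and 5337 (2.03-fold higher, but 0.80 on the log2 scale after loess). Selenok had 10005.8 and 16663 (log2 ratio 0.74, and 0.35 after loess) and Selenot 6921 and 7854 (0.18, and -0.15 after loess). Selenow, a selenoprotein outside that group, had 3811 and 2772 (log2 ratio -0.46).

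None of the genes of NADPH-forming enzymes described here passed 2-fold in its brightest probe set. Cytosolic Idh1 had 14506 and 20025.8 (log2 ratio 0.47, and 0.04 after loess), mitochondrial Idh2 had 1454 and 1447, and Pgd of the pentose phosphate pathway had 18898 and 18427. Me1 had 339 and 191 (log2 ratio -0.83, and -1.43 in a second probe set). The mitochondrial transhydrogenase gene Nnt, known to carry a deletion in C57BL/6J mice, had 3257 and 1953 in its brightest probe set (log2 ratio -0.74) and a log2 ratio of -1.07 in the other probe set above the floor.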
